A study of Mus musculus with 9 samples.

Results

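The comparison is between left ventricles of db/db mice that had received USP28 virus and left ventricles of db/db mice that had received null virus, 3 RNA libraries each, out of 9 in the series. Both groups have the genotype db/db and the label AAV9, adeno-associated virus serotype 9. In the USP28-virus group the vector carries USP28 under the cTnT promoter, and the null-virus group is labelled AAV9_null. The remaining 3 libraries are a wild-type control with no treatment in its labels, shown here only as a level. The aim stated for the series is to evaluate USP28 overexpression in the diabetic, failing and remodelling heart. The labels are silent on age, sex, strain, dose and time after injection. They do not say whether each library is a separate animal either, and p-values then reflect only how far these samples spread, which may be technical. Both groups carry the virus and the db/db genotype, so the comparison holds those constant and says nothing of either. A gene entered where its RPKM (reads divided by gene length and by the library's depth) was at least 0.5 in at least 3 of the 6 db/db libraries, which kept 13615 of 30128 genes (45.2%). Of these, 108 were kept through 1 group alone, and of the 108, 8 passed the test described below in 9 libraries and 27 without null-virus replicate 1. Levels below are scaled RPKM, that is, RPKM after a common scaling of the libraries.

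USP28 is a deubiquitinase, an enzyme that removes ubiquitin from other proteins and so protects them from the proteasome, with MYC and members of the p53 and DNA damage pathways among its known substrates and partners. The db/db mouse carries a mutation in the leptin receptor gene Lepr and becomes obese and diabetic. Its heart relies heavily on fatty acids, which the nuclear receptor PPAR alpha handles at the level of transcription. Serotype 9 reaches the heart efficiently and cTnT, cardiac troponin T, is a cardiomyocyte protein, so the vector is meant to act in muscle cells, while the libraries hold RNA of every cell of the ventricle. In such bulk samples, fewer cells of a type and less RNA per cell cannot be told apart.

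Before the groups are compared, null-virus replicate 1 has to be set apart. Depth recovered from the values was 36.0, 37.9 and 42.4 M reads (M for mega) for null virus and 50.5, 41.1 and 48.6 M for USP28 virus. The mean absolute log2 departure of null-virus replicate 1 from the other libraries of its group was 0.489, against 0.201 to 0.308 for the other 8 libraries. The 18S ribosomal repeat Rn18s-rs5 stood at 3140 scaled RPKM in it, against 853 and 898 in the other null-virus libraries and 944 to 1240 with USP28 virus. Its short genes read high and its long genes low: the median log2 difference from null-virus replicates 2 and 3 was 0.36 in the shortest 20% of genes and -0.27 in the longest. In the plot by gene length that slope passes, smaller and turned over, into the comparison of 9 libraries, with medians of -0.10 and 0.11, and it is -0.03 and 0.02 without replicate 1. The comparison was therefore fitted with it (9 libraries) and without it (8 libraries). USP28-virus replicate 1 carried atrial transcripts, with Myl7, the atrial myosin light chain, at 90.5 scaled RPKM against 0 to 4.69 in the other 8 libraries. Their part in the results was not tested, and Myl7 itself did not pass the filter.

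**Figure D1:**
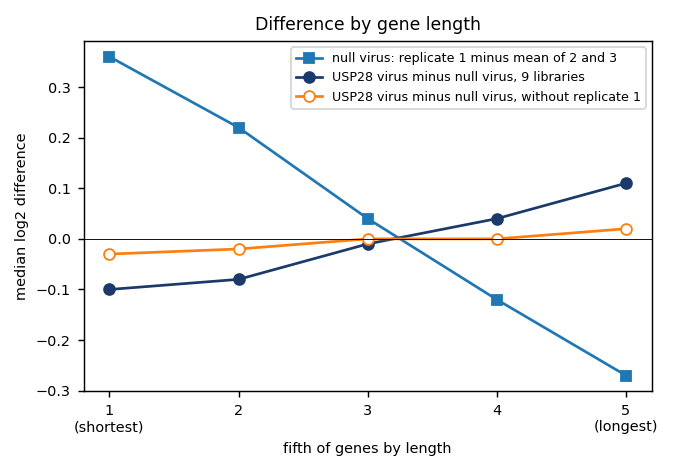
Median log2 difference (y axis) in each 20% of the 13615 genes by length (x axis): squares, null-virus replicate 1 minus the mean of null-virus replicates 2 and 3; filled circles, USP28 virus minus null virus in 9 libraries; open circles, the same without null-virus replicate 1. The squares fall from 0.36 to -0.27, and the open circles stay between -0.03 and 0.02.

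In 11 genes of fuel use and mitochondria the table holds values that are not whole numbers of reads, whereas 99.9839% of all values above 0 are whole within 0.01 reads. The 33 such values lie in the db/db columns alone, 13 under null virus and 20 under USP28 virus. They belong to Acadl, Acadm, Acadvl, Cpt1b, Dgat2, Hdac3, Mfn1, Mfn2, Ppara, Pparg and Slc27a1. In the control columns the total of all genes equals the depth within 2 reads. In the USP28-virus columns it exceeds the depth by 83034, 69613 and 70050 reads, and in the null-virus columns it differs by 1434, -10529 and -14175 reads. None of the sources used here says how these values arose, which was not tested, and each result that rests on them is named as such below.

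The gene the vector carries, Usp28 (chromosome 9, 48985375 to 49042517 on the mouse build GRCm38), was moderately higher with USP28 virus. Its scaled RPKM was 10.0, 7.56 and 7.76 in null-virus replicates 1 to 3 and 9.88, 11.3 and 11.2 with USP28 virus. Control libraries stood at 12.5, 13.4 and 13.7. The db/db groups overlapped only through null-virus replicate 1, and every USP28-virus library lay under every control library. The USP28-virus mean was 128% of the null-virus mean, a difference of 2.36 scaled RPKM (exact two-sided permutation p = 0.2; 0.1 is the smallest that 3 against 3 allows). The log2 difference was 0.36 (SE 0.12, limma with Benjamini-Hochberg adjusted p = 0.19), and 0.48 (SE 0.08, adjusted p = 0.016) without replicate 1. With library totals alone as the scaling, the groups did not overlap (8.40, 7.94 and 8.20 against 10.7, 11.4 and 11.4, exact p = 0.1). Whether reads of the vector's USP28 sequence were counted under Usp28, or match the mouse gene, is stated in none of the sources used here. Usp25, its closest relative, stood at 5.95, 10.3 and 10.7 against 9.47, 10.4 and 9.83 (log2 0.18, adjusted p = 0.65). Lepr was at 0.164 to 0.226 scaled RPKM with null virus and 0.173 to 0.243 with USP28 virus, under the filter. Tnnt2, which encodes the troponin T whose promoter drives the vector, was at 9060, 6960 and 6700 against 5560, 5330 and 5810 (log2 -0.43, adjusted p = 0.19, and -0.30, adjusted p = 0.044, without replicate 1).

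Of the partners and substrates of USP28, 0 of 12 tested passed in 9 libraries, and without replicate 1 Usp28 itself was the only member that passed. Myc, the best-known substrate, read 2.15, 1.15 and 1.02 with null virus and 1.17, 1.14 and 0.829 with USP28 virus (log2 -0.37, adjusted p = 0.58). Trp53, which encodes p53, read 0.927, 0.763 and 0.756 against 1.27, 1.06 and 0.968 without overlap (log2 0.39, adjusted p = 0.24). These are transcript levels and do not measure the proteins on which a deubiquitinase acts.

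Across all genes, 96 of 13615 passed (0.705%), 59 higher (0.433%) and 37 lower (0.272%) with USP28 virus, and 2284 had an unadjusted p under 0.05. The groups of 3 and 3 did not overlap for all 96, and over all genes tested they did not overlap for 3208 (23.6%). The 96 changed by a median of 0.88 on the log2 scale, and 69 of them are protein coding. Without null-virus replicate 1, 941 genes passed (6.91%), 424 higher (3.11%) and 517 lower (3.8%), at a median change of 0.59. All 96 were among them, in the same direction. Of the 941, replicate 1, which had no part in that fit, lay on the null-virus side of all 3 USP28-virus values for 551, within their range for 136 and beyond them for 254. The count of 96 is not stable: no gene passed without null-virus replicate 2 or 3, without any USP28-virus library, without control replicate 2, or in the 6 db/db libraries alone (1520 to 2730 genes at unadjusted p under 0.05 in these fits). Without control replicate 1 or 3 the count was 39 or 11.

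**Figure D2:**
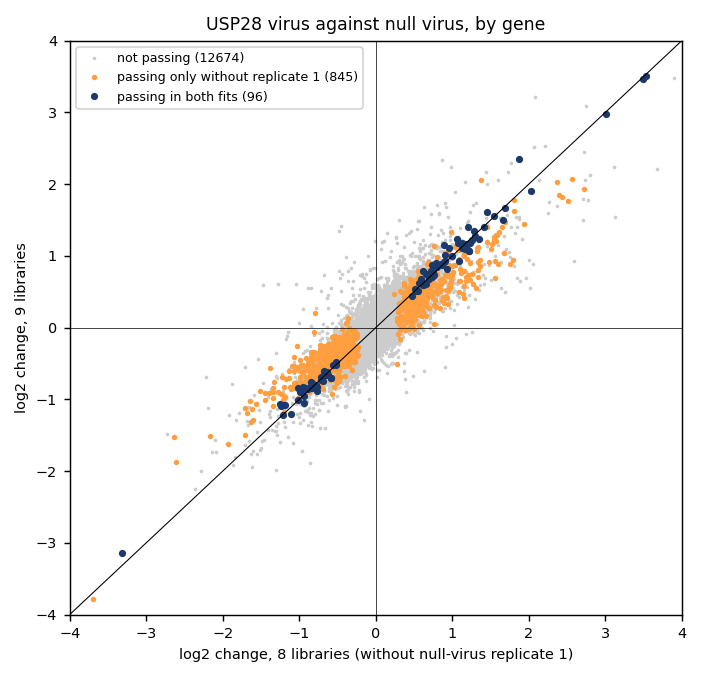
Log2 change of each gene, USP28 virus minus null virus, in 9 libraries (y axis) against 8 libraries without null-virus replicate 1 (x axis). Dark points are the 96 genes that passed in both fits, orange points the 845 that passed only without replicate 1, grey points the other 12674, and 1 gene lies outside the axes. The dark points follow the diagonal line, and most orange points lie between it and the horizontal axis.

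Among muscle genes, a slow-type myosin and a myosin kinase rose. Myh7b (chromosome 2, 155611212 to 155634307), a slow myosin heavy chain whose gene also holds a muscle microRNA, stood at 33.1, 22.2 and 25.2 in null-virus libraries and 79.3, 72.3 and 74.1 in USP28-virus libraries. The groups lay far apart, and the control libraries stood at 76.5, 113 and 124. The log2 change was 1.50 (SE 0.20, limma adjusted p = 0.026) in 9 libraries and 1.66 without replicate 1. Mylk4 (chromosome 13, 32700827 to 32783954), a member of the myosin light chain kinase family, went from 1.52, 2.24 and 2.44 to 3.86, 7.49 and 5.93. This was a log2 change of 1.41 (SE 0.25, adjusted p = 0.049; 1.20 without replicate 1), and the control libraries, at 14.6 to 17.3, all lay above both groups. Trim7, a ubiquitin ligase that binds the glycogen primer glycogenin, rose from 1.69, 1.43 and 1.39 to 3.35, 3.49 and 3.10 (log2 1.1, adjusted p = 0.033; 1.17 without replicate 1). It overlaps the gene model Gm16170, which also passed, and the strand setting of the counting is not given, so their reads may not be separate.

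The promoter of Myh7b is shown because this gene had the highest level among the 12 largest rises. The bases lie before its RefSeq start (positions -250 to -32, plus strand, chr2:155610993-155611211, GRCm38.p6), written 5′ to 3′, with an E-box, CACGTG, the site of clock and MYC family proteins, and an estrogen-related receptor element, TCAAGGTCA on the opposite strand, in capitals.
Myh7b promoter: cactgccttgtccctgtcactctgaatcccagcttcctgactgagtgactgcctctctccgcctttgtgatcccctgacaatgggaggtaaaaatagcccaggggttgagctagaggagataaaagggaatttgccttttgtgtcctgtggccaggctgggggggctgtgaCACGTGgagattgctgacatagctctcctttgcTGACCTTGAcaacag
Both strands were searched in the 250 bases before the start. CACGTG occurs in 906 of 11087 promoters of tested genes (8.17%) and TCAAGGTCA in 28 (0.253%). Of the 54 passing genes with a promoter in the RefSeq table, 4 hold CACGTG and 1, Myh7b, holds TCAAGGTCA. These counts are by gene, over any of its promoters, and the shares are by promoter, so they are unlike measures. A match is a description of the sequence and not a measured site.

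Of 24 contractile proteins of the sarcomere, Myh7b was the only member that passed in 9 libraries (median log2 change of the list 0.05, against 0.00 over all genes). Over all genes 0.705% passed in 9 libraries, and 3.11% rose and 3.8% fell without replicate 1. In the fit without replicate 1, 5 members of the list rose and 1 fell (median 0.08). They included Actc1, cardiac actin, at 766, 453 and 477 against 703, 818 and 818 (log2 0.74, adjusted p = 0.0041; in 9 libraries 0.50, adjusted p = 0.25). Mybpc3, the myosin binding protein that tunes crossbridges, read 447, 372 and 359 against 478, 557 and 577 without overlap (0.54, adjusted p = 0.013; 0.45, adjusted p = 0.14). Ldb3, a Z-disc protein, was at 41.9 to 45.7 against 52.4 to 56.8 (0.31, adjusted p = 0.037; 0.30, adjusted p = 0.15). The main ventricular myosin Myh6 stood at 16600, 13200 and 11900 against 16300, 15600 and 18300 (log2 0.28, adjusted p = 0.40). Myh7, the fetal and slow myosin that marks cardiac stress, stood at 925, 321 and 391 against 554, 533 and 485 (log2 0.10, adjusted p = 0.90), with replicate 1 the highest of all 6. Without replicate 1 the log2 differences of Myh6 and Myh7 were 0.41 and 0.56 (limma adjusted p = 0.054 and 0.062).

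**Figure D3:**
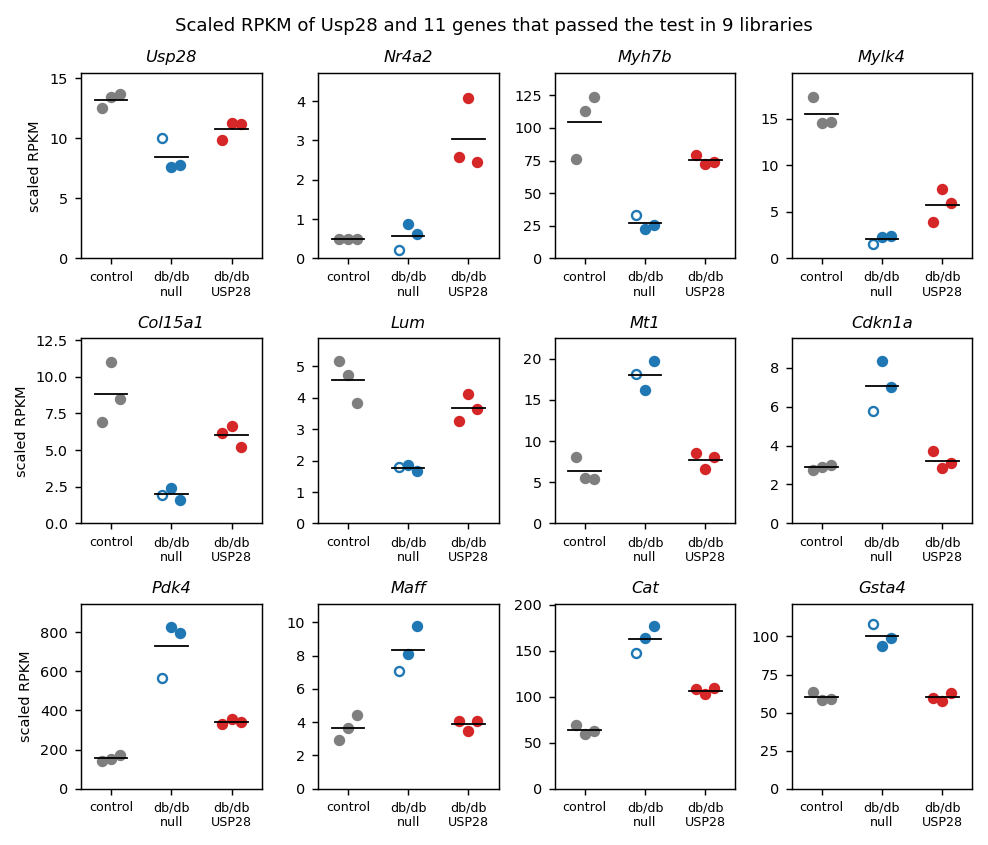
Scaled RPKM (y axis, from 0) of Usp28 and 11 genes in control, db/db null-virus and db/db USP28-virus libraries; points are libraries, the open circle is null-virus replicate 1 and bars are means of 3. For the 11 genes other than Usp28 every USP28-virus point lies clear of every null-virus point; in Usp28 the open circle, at 10.0, lies within the USP28-virus range of 9.88 to 11.3.

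Genes of the extracellular matrix were higher with USP28 virus: 4 of 39 tested rose in 9 libraries and 11 without replicate 1, and 0 fell in either fit. Over all genes 0.433% and 3.11% rose. The median log2 change of the list was 0.36 in 9 libraries and 0.31 without replicate 1 (0.00 over all genes in both). Of the 39, 23 lay wholly above the null-virus libraries and 1 wholly under them, against 1615 and 1593 of all 13615 genes tested. Col15a1 (chromosome 4, 47208161 to 47313167), a collagen of the basement membrane zone of muscle and vessels, stood at 1.96, 2.42 and 1.60 in null-virus libraries and 6.20, 6.62 and 5.19 in USP28-virus libraries. The USP28-virus values lay between the null-virus group and the control libraries, at 6.95, 11 and 8.51. At 1.56 on the log2 scale (SE 0.20, limma adjusted p = 0.026), this was the largest rise of the 4, and it was 1.55 without replicate 1. Lum (chromosome 10, 97565501 to 97572703), the proteoglycan lumican that spaces collagen fibrils, went from 1.79, 1.86 and 1.68 to 3.25, 4.11 and 3.64 (log2 1.0, SE 0.14, adjusted p = 0.026). Loxl2, a lysyl oxidase that crosslinks collagen, went from 0.693, 0.864 and 1.11 to 2.03, 2.13 and 1.85 (log2 1.11, adjusted p = 0.035). Col6a3, a chain of the microfibrillar collagen VI, went from 0.646, 0.957 and 0.735 to 1.61, 1.69 and 1.69 (log2 1.02, adjusted p = 0.039). Without replicate 1 the changes of Lum, Loxl2 and Col6a3 were 1.0, 0.95 and 0.90.

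Col6a1 and Col6a2, the partner chains of Col6a3, had log2 changes of 0.77 and 0.81 (adjusted p = 0.060 and 0.055), and both passed without replicate 1. Col3a1, a fibrillar collagen, stood at 3.22, 2 and 1.48 against 5.96, 5.53 and 5, log2 1.33 (adjusted p = 0.080) and 1.61 (adjusted p = 0.0098) without replicate 1. Its companion in fibrils, Col1a1, did not share this: it read 4.48, 4.12 and 3.14 against 3.46, 3.89 and 2.67, overlapping, with a log2 difference of -0.22 (adjusted p = 0.55). Postn, a matrix protein of activated fibroblasts, read 1.71 to 1.95 against 2.41 to 3.12 (log2 0.53, adjusted p = 0.17). Of 18 genes of TGF-beta signalling and myofibroblasts, Lrrc15, a membrane protein of TGF-beta-activated fibroblasts, rose from 1.11, 1.14 and 0.790 to 2.04, 2.81 and 2.37 (log2 1.18, adjusted p = 0.046; 1.24 without replicate 1). The median of that list was 0.12. Ctgf, a matricellular TGF-beta target, pointed the other way at 25.3, 32.6 and 54.6 against 18.3, 20.1 and 16.7 (log2 -0.95, adjusted p = 0.14; -1.20, adjusted p = 0.037, without replicate 1).

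Beside these matrix genes stand the markers of the cells that make them. Of 12 fibroblast markers 1 rose in 9 libraries, Lum, which is also a matrix gene, and 4 without replicate 1, with medians of 0.15 and 0.14. Over all genes 0.433% and 3.11% rose. Of the 12, 5 lay wholly above the null-virus libraries and 0 wholly under, against 1615 and 1593 of all 13615 genes. In 9 libraries 9 were positive and 3 negative, and without replicate 1, 6 and 6. The summed level of the fibroblast markers was 304 to 343 scaled RPKM with null virus and 320 to 359 with USP28 virus, which overlap, and no marker was at 0. Pdgfra, a receptor that defines cardiac fibroblasts, read 1.87, 3.16 and 2.92 against 3.22, 3.38 and 2.61, and Tcf21, their defining transcription factor, 2.12, 1.76 and 0.985 against 1.31, 2.09 and 1.56. All 8 pericyte markers had positive log2 changes and 0 passed (median 0.23). Whether the mix of cells bears on the matrix genes was not tested.

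The largest of the 12 named rises was in Nr4a2 (chromosome 2, 57106830 to 57124003), an orphan nuclear receptor that is switched on within minutes by calcium and cyclic AMP signals. It stood at 0.212, 0.866 and 0.616 scaled RPKM with null virus, or 26, 140 and 112 reads. With USP28 virus it stood at 2.59, 4.09 and 2.44, or 578, 687 and 488 reads. The groups lay apart, and the control libraries, at 0.484 to 0.5, lay with the null-virus group. Its log2 change was 2.35 (SE 0.38, limma adjusted p = 0.041), and 1.88 (SE 0.23) without replicate 1, the lowest null-virus library. Its relative Nr4a1 went from 1.27, 3.26 and 3.42 to 13.6, 17.8 and 12.4 without overlap, but with a log2 difference of 2.52 it did not pass (adjusted p = 0.081). Nr4a3, the remaining member of the family, stood at 0.875, 0.314 and 0.615 against 1.64, 1.11 and 1.81 (log2 1.27, adjusted p = 0.15; 1.54, adjusted p = 0.048, without replicate 1).

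The promoter of Nr4a2 is shown as that of the largest of these rises: the 250 bases before its RefSeq start (minus strand, chr2:57124004-57124253, GRCm38.p6), 5′ to 3′ on the strand of the gene. Capitals mark TGACG, the core element bound by cyclic AMP response factors, or its reverse complement CGTCA.
Nr4a2 promoter: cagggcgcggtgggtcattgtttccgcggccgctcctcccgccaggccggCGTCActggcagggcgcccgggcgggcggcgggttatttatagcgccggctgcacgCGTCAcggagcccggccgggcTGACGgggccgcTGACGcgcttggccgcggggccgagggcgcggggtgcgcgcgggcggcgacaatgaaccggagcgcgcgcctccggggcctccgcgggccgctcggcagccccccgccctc
It holds 4 matches. At least 1 match occurs in 2970 of 11087 promoters of tested genes (26.8%) and at least 4 in 37 (0.334%). Of the 54 passing genes with a promoter, 17 hold at least 1 in any of their promoters. That count is by gene and the shares are by promoter, so they are unlike measures.

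Of 21 immediate early genes tested, Nr4a2 was the only member that passed in 9 libraries, with a list median of 0.40, and Nr4a3 joined it without replicate 1 (median 0.50). Over all genes 0.705% and 6.91% passed. Fos, a subunit of the AP-1 factor, read 0.705, 1.75 and 0.987 against 1.59, 4.21 and 1.20, overlapping. Atf3, a stress-induced repressor, read 7.48, 1.56 and 2 against 9.03, 9.62 and 10.1 without overlap (log2 1.70, adjusted p = 0.27). Here replicate 1 lay near the USP28-virus group and the other null-virus libraries far under it.

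Clock genes had the highest median of the 30 lists in 9 libraries, 0.55 (0.46 without replicate 1), though 0 of 19 passed in 9 libraries. Without replicate 1, 2 rose, beside 3.11% of all genes: Nr1d1 (below) and Bhlhe41, a repressor of the clock (0.95, limma adjusted p = 0.040). In 12 members every USP28-virus library lay above every null-virus library, and in 1 every USP28-virus library lay under. Over all 13615 genes tested these counts were 1615 and 1593. Dbp, a clock output activator, read 9.62, 2.52 and 4.15 against 14.6, 17.1 and 16.5 (log2 1.76, adjusted p = 0.24). Per1, a core repressor of the clock, read 3.20, 6.72 and 7.63 against 12.2, 11.3 and 10.3 (log2 1.02, adjusted p = 0.25). Nr1d1, the heme-binding repressor REV-ERB alpha, which lies antisense to Thra, read 8.63, 7.31 and 6.91 against 11.4, 11.2 and 11.1 (log2 0.56, adjusted p = 0.058; 0.64, adjusted p = 0.0041, without replicate 1). Arntl, the activator BMAL1, fell under the filter at 0.891, 1.06 and 0.469 against 0.320, 0.331 and 0.251. In control, Dbp read 14.7, 3.17 and 2.27 and Nr1d1 7.87, 8.78 and 9.01. The labels do not give the hour at which tissue was taken, so time of day and virus cannot be told apart.

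Among the genes that fell were a metallothionein, a cell cycle inhibitor and a mitochondrial kinase. Mt1 (chromosome 8, 94179082 to 94180327), which binds zinc and copper and is induced by metals and glucocorticoids, stood at 18.2, 16.2 and 19.7 in null-virus libraries and 8.60, 6.56 and 8.01 in USP28-virus libraries. The USP28-virus libraries read close to control (8.12, 5.54 and 5.36). Its log2 change was -1.22 (SE 0.17, limma adjusted p = 0.033) and did not move without replicate 1. Cdkn1a (chromosome 17, 29090979 to 29100722), the p21 inhibitor of cyclin-dependent kinases and a p53 target, went from 5.77, 8.35 and 7 to 3.70, 2.86 and 3.10. The log2 change came to -1.10 (SE 0.15, adjusted p = 0.026), beside control values of 2.75 to 3.02. Pdk4 (chromosome 6, 5483351 to 5496309), the kinase that shuts pyruvate dehydrogenase when fatty acids are burned, went from 565, 826 and 794 to 329, 358 and 343. That was a log2 change of -1.07 (SE 0.16, adjusted p = 0.035), and the control libraries lay lower still, at 140 to 174. Maff, a small MAF transcription factor, went from 7.09, 8.11 and 9.77 to 4.08, 3.49 and 4.07 (log2 -1.07, adjusted p = 0.039). Without replicate 1 the changes of Cdkn1a, Pdk4 and Maff were -1.24, -1.25 and -1.19.

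These 3 genes, Mt1, Cdkn1a and Pdk4, all belong to a list of 22 glucocorticoid targets and metallothioneins, of which they were the ones that fell and 0 rose. Over all genes 0.272% fell in 9 libraries and 3.8% without replicate 1. The list median was -0.25, and -0.31 without replicate 1, when Klf15, a Krueppel-like factor induced by glucocorticoids, fell too (-0.68, adjusted p = 0.016; -0.35, adjusted p = 0.48, in 9 libraries). Other classical glucocorticoid targets did not pass. Fkbp5, a chaperone of the receptor, read 4.48, 9.04 and 8.84 against 4.65, 4.82 and 4.74 (log2 -0.58, adjusted p = 0.36). Its log2 difference was -0.91 (limma adjusted p = 0.059) without replicate 1. Tsc22d3, the leucine zipper GILZ, read 7.33, 10.0 and 10.6 against 8.93, 7.86 and 10.1 (log2 -0.05, adjusted p = 0.90), and Per1, also on the list, was higher. Mt2, the neighbour of Mt1, averaged 10.7 ± 3.61 (SD, n = 3) against 3.12 ± 0.956, a log2 difference of -1.72 (adjusted p = 0.085).

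Of 14 p53 targets Cdkn1a was the only member that fell in 9 libraries (list median -0.23). Without replicate 1, 5 fell and 1 rose (median -0.31). Over all genes 0.272% fell in 9 libraries, and 3.8% fell and 3.11% rose without replicate 1. Fas, the death receptor, read 10.0, 17.5 and 13.9 against 6.52, 8.63 and 8.29 (log2 -0.79, adjusted p = 0.12; -1.0, adjusted p = 0.013, without replicate 1). Bbc3, the pro-apoptotic PUMA, read 1.62, 1.35 and 1.35 against 0.772, 0.762 and 0.793 (-0.81, adjusted p = 0.065; -0.73, adjusted p = 0.037). Gadd45a, a growth arrest gene, moved the other way, at 7.28, 2.62 and 2.14 against 5.74, 5.48 and 5.64, and rose without replicate 1 (1.21, adjusted p = 0.0041; 0.69, adjusted p = 0.38, in 9 libraries), which itself read above every USP28-virus library.

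Antioxidant and autophagy genes fell in part, beside 0.272% of all genes in 9 libraries and 3.8% without replicate 1. Gsta4 (chromosome 9, 78182774 to 78209349), a glutathione transferase for products of lipid peroxidation, went from 108, 93.9 and 99.1 to 59.4, 57.6 and 63.1, the level of control (58.4 to 63.2). The log2 change here was -0.74 (SE 0.09, limma adjusted p = 0.026), and -0.69 without replicate 1. Cat (chromosome 2, 103453849 to 103485160), catalase, which breaks down hydrogen peroxide, went from 148, 164 and 177 to 108, 103 and 109, above control at 59.1 to 69.4 (log2 -0.60, SE 0.11, adjusted p = 0.049; -0.68 without replicate 1). Of 30 antioxidant and glutathione genes these 2 fell and 0 rose (median -0.24), and without replicate 1, 7 fell (median -0.16). Gabarapl1, a ubiquitin-like protein of the autophagosome, went from 36.7, 26.3 and 30.9 to 19.1, 18.7 and 19.1 (log2 -0.70, adjusted p = 0.049; -0.59 without replicate 1), and shares its place with the gene model 1700101I11Rik, which also passed. Of 24 autophagy and mitophagy genes it was the only member that passed, and without replicate 1, 7 fell and 0 rose (medians -0.15 and -0.17). Bnip3, a mitophagy receptor induced by low oxygen, read 94.7, 114 and 131 against 64.7, 68.5 and 74.1 without overlap (-0.70, adjusted p = 0.060; -0.83, adjusted p = 0.0039). Map1lc3a, an LC3 protein of the autophagosome membrane, read 133, 103 and 103 against 73.1, 73.7 and 76.7 (-0.59, adjusted p = 0.075; -0.48, adjusted p = 0.011).

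The calls among fuel genes, here and in the next paragraph, stand beside 0.705% of all genes passing in 9 libraries and 6.91% without replicate 1. Of 25 PPAR alpha targets, Pdk4 fell and 0 rose in 9 libraries (median -0.24). Without replicate 1, 4 fell and 2 rose (median -0.13), and the 2 that rose, Acadm and Acadvl, dehydrogenases of fatty acid oxidation, have USP28-virus values that are not whole reads in all 3 libraries. Without those values neither could be tested. The 4 that fell include Plin2, which coats lipid droplets, at 21.9, 19.0 and 19.3 against 15.6, 13.7 and 14.1 (log2 -0.41, adjusted p = 0.015; -0.47, adjusted p = 0.066, in 9 libraries). Acot2, a mitochondrial thioesterase with a near-identical neighbour that could share its reads, was at 143, 109 and 111 against 82.6, 80.4 and 74.6 (-0.48, adjusted p = 0.044; -0.60, adjusted p = 0.10). Ppara itself, the receptor, read 0.648, 1.05 and 1.57 against 2.03, 1.92 and 2.17 (log2 0.92, adjusted p = 0.13), with 2 of its USP28-virus values not whole reads.

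Of 25 genes of lipid storage and synthesis 0 passed in 9 libraries, and 6 fell and 2 rose without replicate 1 (medians -0.21 and -0.28). Lpl, the lipase that frees fatty acids from blood lipoproteins, read 324, 376 and 347 against 237, 235 and 257, under all null-virus libraries (-0.52, adjusted p = 0.065; -0.58, adjusted p = 0.0041). Mgll, which completes the breakdown of triglyceride, read 10.2, 13.1 and 11.4 against 8.72, 8.21 and 8.91 (-0.41, adjusted p = 0.11; -0.51, adjusted p = 0.010). Of 30 genes of glucose uptake and glycolysis 0 passed in 9 libraries, and 3 fell and 1 rose without replicate 1. Ldha, lactate dehydrogenase, read 45.8 to 52.2 against 35.6 to 40.1 (-0.39, adjusted p = 0.094; -0.35, adjusted p = 0.026). Hk2, the insulin-regulated hexokinase, read 11.8, 16.2 and 15.8 against 17.1, 20.4 and 18.2 (0.36, adjusted p = 0.24), and Oxct1, which activates ketone bodies, 79.9, 111 and 118 against 78.9, 101 and 94.5 (-0.15, adjusted p = 0.63).

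In the mitochondrial lists the mitofusins stood out, on values of uncertain origin. Mfn1 and Mfn2 join the outer membranes of mitochondria, and they were the 2 of 20 fusion, fission and cristae genes that passed (list median -0.11). Without replicate 1, 3 members rose and 2 fell, beside 3.11% and 3.8% of all genes. Mfn1 read 22.1, 24.0 and 25.1 with null virus and 42.2, 42.0 and 46.7 with USP28 virus (log2 0.88, SE 0.09, limma adjusted p = 0.021; 0.82 without replicate 1). Its 3 null-virus values are all fractional in reads, and leaving them out leaves no null-virus level to test. Mfn2 read 46.1, 43.7 and 44.2 against 62.6, 75.2 and 66.0 (0.60, SE 0.09, limma adjusted p = 0.039). Its null-virus values in replicates 2 and 3 are not whole reads, which leaves replicate 1 as the only whole one. The change of 0.62 without replicate 1 thus rests, for null virus, on values that are not whole reads alone. Opa1, which fuses inner membranes and has whole reads throughout, read 12, 13.3 and 13.6 against 14.1, 16.2 and 16.2 without overlap (0.25, adjusted p = 0.23). Of 19 regulators of mitochondrial biogenesis 0 passed in 9 libraries, and 1 rose and 1 fell without replicate 1. Ppargc1a, the master coactivator, read 6.19, 9.27 and 10.1 against 7.95, 10.3 and 10.5, overlapping, and its relative Ppargc1b 1.95, 1.55 and 2.35 against 3.86, 3.69 and 5.09 (1.08, adjusted p = 0.065; 1.08, adjusted p = 0.039, without replicate 1).

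The nuclear-encoded subunits of the respiratory chain were nearly all negative in both fits, and the size of the difference changed with null-virus replicate 1. In 9 libraries 74 of 75 had a negative log2 change, 42 lay wholly under the null-virus group, 0 passed and the median was -0.41. Over all 13615 genes tested, 6716 were negative and 1593 lay wholly under. Without replicate 1, 72 of 75 were negative, the median was -0.13 and 3 fell (Sdhc, Cox5a and Atp5d, subunits of complexes II, IV and V). In that fit 6889 of all 13615 genes were negative and 3.8% of all genes fell. Replicate 1 was the highest of the 6 libraries for 72 of the 75, at a median of 0.80 above null-virus replicates 2 and 3. The median length of these genes is 1550 bases, against 3301 over all genes tested, beside the slope with gene length in that library.

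**Figure D4:**
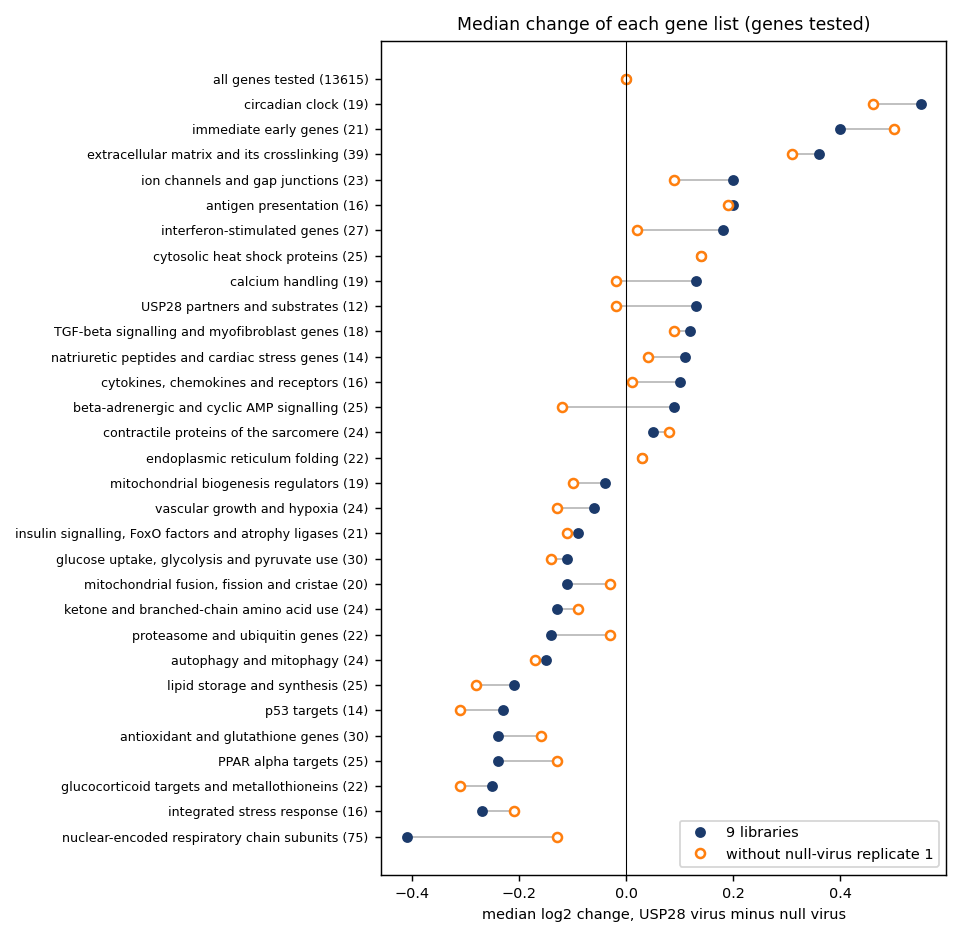
Median log2 change, USP28 virus minus null virus (x axis), of the 30 gene lists and of all genes tested, with the number of genes tested in brackets; filled circles, 9 libraries; open circles, without null-virus replicate 1. Clock, immediate early and matrix genes lie at 0.31 or above in both fits, and respiratory chain subunits move from -0.41 to -0.13.

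Further genes with large changes came from no single list. Krt222, a keratin-like gene, rose from 2.14, 1.72 and 1.73 to 3.73, 4.29 and 4.27 (log2 1.1, SE 0.11, limma adjusted p = 0.021), with control at 11.7 to 12.5; without replicate 1 the change was 1.19. Ccdc88c, which binds Dishevelled in Wnt signalling, rose from 2.20, 3.76 and 3.77 to 7.64, 6.89 and 6.88 (1.15, adjusted p = 0.047; 0.90 without replicate 1), above control at 2.67 to 3.11. The transcript AU020206 rose from 1.60, 1.32 and 1.12 to 3.43, 3.23 and 3.14 (1.23, adjusted p = 0.026; 1.35 without replicate 1). Mir3100 and Mir6381 also passed (1.18 and 1.61; 1.07 and 1.45 without replicate 1), but these short genes lie inside Dmpk and Gbp2 and the libraries hold polyadenylated RNA, so their reads may belong to the genes around them. Mir6381 lies on the strand opposite Gbp2. The surrounding genes differed by less, Dmpk by 0.22 (adjusted p = 0.49) and Gbp2 by 0.22 (adjusted p = 0.44). Mir6381 held 3, 5 and 7 reads with null virus and 28, 15 and 17 with USP28 virus.

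Falls outside the lists included Ednra, the endothelin receptor of vascular muscle and cardiomyocytes, at 6.63, 6.99 and 8.64 against 3.55, 3.76 and 4.78 (log2 -0.87, adjusted p = 0.045). Zdhhc14, a palmitoyltransferase, went from 2.26, 3.12 and 2.74 to 1.39, 0.931 and 1.4 (-1.07, adjusted p = 0.048). Of the other named falls, 3 handle RNA: Trmt5, a tRNA methyltransferase (-0.95), Imp3, of the machinery that processes ribosomal RNA (-0.88), and Snrnp48, of the minor spliceosome (-0.86). Asb11, a substrate receptor of ubiquitin ligases, and Art5, an ADP-ribosyltransferase, were also among the 12 largest falls, at -0.86 and -0.90. For these 7 genes every USP28-virus library lay under every null-virus library, and without replicate 1 they changed by -0.77 (Imp3) to -1.20 (Zdhhc14).

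Without null-virus replicate 1, a further set of genes came to the fore, and the level of that library is given with each. Ankrd1 (chromosome 19, 36111965 to 36119844), a stretch-responsive titin-binding repressor known as CARP, stood at 1540, 209 and 408 with null virus and 1920, 2210 and 1720 with USP28 virus. Its log2 change was 2.72 (SE 0.27, limma adjusted p = 0.0036) without replicate 1 and 1.93 (adjusted p = 0.16) with it. Nmrk2, a muscle kinase that makes NAD from nicotinamide riboside, read 4, 1.24 and 2.75 against 9.38, 10.8 and 10.1 (2.38, adjusted p = 0.019; 2.03, adjusted p = 0.066). Irs2, an adaptor of the insulin receptor, read 1.38, 0.667 and 1.01 against 2.57, 2.94 and 3.18 (1.69, adjusted p = 0.014; 1.47, adjusted p = 0.065). Atcay, a caytaxin-type lipid-binding protein, read 2.53, 0.427 and 1.55 against 6.20, 5.53 and 4.71 (2.57, adjusted p = 0.049; 2.07, adjusted p = 0.14, in 9 libraries). Mir486, which lies within Ank1, completed the rises with Col3a1, at 1.55, 0.980 and 2.09 against 4.98, 5.85 and 5.07 (1.80, adjusted p = 0.040; 1.77, adjusted p = 0.052). This short gene held 6, 5 and 12 reads with null virus and 35, 31 and 32 with USP28 virus. It also overlaps Gm15816 and Mir3107, and its reads may belong to the genes around it. In Ankrd1, Nmrk2, Irs2, Atcay and Mir486 no null-virus library reached a USP28-virus library. Ankrd23, a sarcomeric relative of Ankrd1, read 230, 50.3 and 71.0 against 191, 208 and 178, and Hmgn2, a nucleosome-binding protein, 31.4, 6.88 and 7.03 against 20.7, 21.7 and 21.9. Both rose without replicate 1 (1.67 and 1.60; in 9 libraries 1.03, adjusted p = 0.31, and 0.89, adjusted p = 0.38), and in both replicate 1 exceeded every USP28-virus library.

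Among the falls of this fit, Gbp10, an interferon-induced guanylate-binding protein, read 3.27, 12 and 13.8 against 3.13, 2.44 and 2.92 (log2 -2.16, SE 0.13, adjusted p = 0.00056; -1.51, adjusted p = 0.16, in 9 libraries). Its near-identical relative Gbp6, with which it may share reads, read 7.21, 18.3 and 21.0 against 6.70, 5.04 and 7.50 (-1.62, adjusted p = 0.0028; -1.14, adjusted p = 0.17). Cdo1, which turns cysteine towards taurine, read 1.60, 5.89 and 9.80 against 1.76, 0.837 and 1.07 (-2.61, adjusted p = 0.018; -1.87, adjusted p = 0.18). Cited2, which restrains hypoxia signalling, read 6.84, 28 and 23.1 against 8.39, 11.4 and 7.41 (-1.51, adjusted p = 0.0041; -0.88, adjusted p = 0.35). In each of these 4 genes replicate 1 lay within or close to the USP28-virus range, and 0 of them passed with it. Lrrc52, Tmem164, Tmem41a and Abhd18 fell by 2.63, 1.65, 1.64 and 1.56 on the log2 scale (in 9 libraries -1.52, -1.03, -1.31 and -1.06, none of which passed). Replicate 1 read 0.232, 1.37, 1.42 and 2.47 in them, under the other null-virus libraries in each. The USP28-virus ranges were 0.266 to 0.669, 1.37 to 1.86, 0.538 to 1.07 and 2.04 to 2.57.

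**Figure D5:**
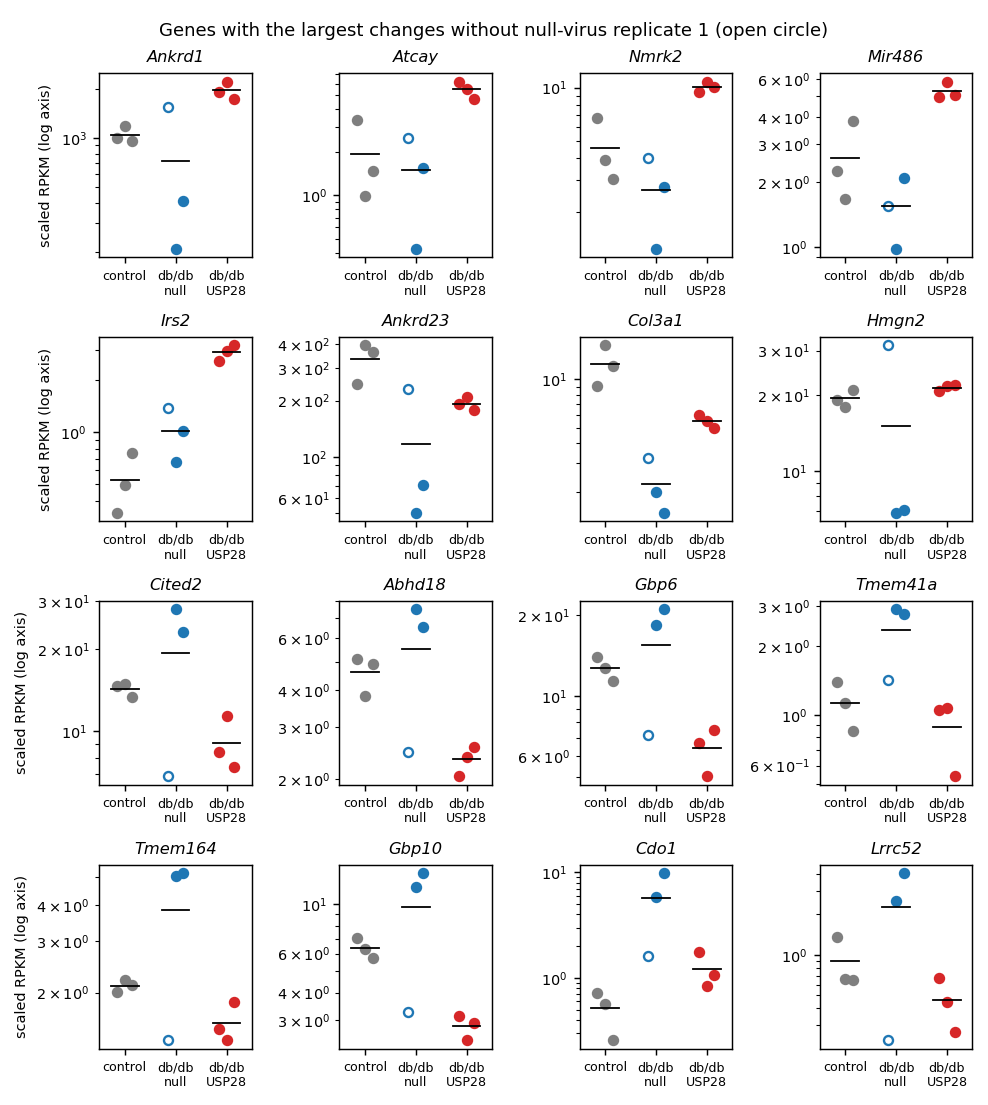
Scaled RPKM (y axis, log scale) of the 8 largest rises (upper rows) and 8 largest falls (lower rows) by the fit without null-virus replicate 1 among genes not already among the largest of 9 libraries. Points are libraries, the open circle is null-virus replicate 1 and bars are means of 3. In Hmgn2, for example, the open circle reads 31.4 against 6.88 and 7.03 in the other null-virus libraries.

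Genes of cardiac load and excitation did not pass in 9 libraries. Nppa, the atrial natriuretic peptide, read 79.7, 290 and 330 with null virus and 1300, 147 and 171 with USP28 virus, where the high value is the library with atrial transcripts. Its log2 difference was 0.70 (adjusted p = 0.68) and 0.04 without null-virus replicate 1, and it was -0.31 without USP28-virus replicate 1. Nppb, the ventricular peptide, read 161, 3.50 and 15.4 against 80.9, 108 and 101 (2.21, adjusted p = 0.38; 3.68, adjusted p = 0.058). Atp2a2, the SERCA2 pump that refills the calcium store, read 246, 608 and 642 against 404, 557 and 506 (0.08, adjusted p = 0.92; -0.37, adjusted p = 0.13). Ryr2, the release channel of that store, read 23.1, 61.9 and 69.6 against 52.0, 52.1 and 49.3, and fell without replicate 1 (-0.37, adjusted p = 0.035; 0.14, adjusted p = 0.86, in 9 libraries). For Atp2a2 and Ryr2 the null-virus libraries stood on either side of the USP28-virus group.

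In the fit without replicate 1, 3.11% of all genes rose and 3.8% fell. Of 25 beta-adrenergic and cyclic AMP genes, 1 rose and 3 fell in that fit. Grk5, the kinase that desensitises beta-adrenergic receptors, read 10.2, 21.6 and 23 against 9.48, 9.30 and 8.80, under every null-virus library (-1.28, SE 0.07, limma adjusted p = 0.00055; -0.90, adjusted p = 0.15, in 9 libraries). Akap12, an anchor of protein kinase A, read 21.1, 19.2 and 22.3 against 29.1, 28.8 and 28.1 (0.46, adjusted p = 0.030; 0.46, adjusted p = 0.085). Of 23 ion channel genes 0 passed in 9 libraries, and 2 rose and 2 fell without replicate 1. Kcnj2, the inward rectifier that sets the resting potential, read 2.02, 5.12 and 5.35 against 2.20, 2.08 and 1.78 (-1.34, adjusted p = 0.0011; -0.89, adjusted p = 0.21).

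In the insulin, growth and stress lists 0 genes passed in 9 libraries, and their calls without replicate 1 stand beside 6.91% of all genes. Among 21 genes of insulin signalling, FoxO factors and atrophy ligases, Irs2 rose and 3 fell without replicate 1. Foxo4, a transcription factor held back by insulin, read 22.4, 32.9 and 31.2 against 19.0, 17.8 and 20.0 (log2 -0.77, limma adjusted p = 0.0031; -0.59, adjusted p = 0.11, in 9 libraries). Fbxo32, the atrophy ligase atrogin-1 that FoxO factors switch on, read 14.4, 39.1 and 35.2 against 16.4, 19.2 and 17.9 (-1.06, adjusted p = 0.0028; -0.60, adjusted p = 0.37). Herpud1, of endoplasmic reticulum degradation, read 24.5, 34.8 and 33.0 against 18.2, 15.6 and 20.1 without overlap (-0.93, adjusted p = 0.0085; -0.76, adjusted p = 0.083), and was 1 of 2 among 22 folding genes to fall without replicate 1. In either fit 0 of 27 interferon-stimulated genes and 0 of 16 genes of the integrated stress response passed, with medians of 0.18 and -0.27 in 9 libraries and 0.02 and -0.21 without replicate 1.

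Among 24 vascular and hypoxia genes, 0 passed in 9 libraries, and 1 rose and 4 fell without replicate 1. Over all genes 3.11% rose and 3.8% fell without it. Among 16 cytokines, chemokines and receptors, 0 passed in 9 libraries, and 1 rose and 1 fell without replicate 1. Cxcl12, a chemokine of vessels and fibroblasts, read 7.04, 7.24 and 7.68 against 10.2, 10.2 and 10.3 (log2 0.48, limma adjusted p = 0.055; 0.44, adjusted p = 0.018, without replicate 1). Angpt1, the ligand that steadies vessels, read 1.58, 9.35 and 6.80 against 4.05, 4.51 and 3.23 and fell without replicate 1 (-1.02, adjusted p = 0.018; -0.26, adjusted p = 0.82, in 9 libraries). Aplnr, the apelin receptor, read 0.439, 0.217 and 0.169 against 0.852, 1.06 and 0.505 (1.29, adjusted p = 0.12; 1.58, adjusted p = 0.022, without replicate 1). It reached the filter through the USP28-virus libraries alone, so that its difference was in part a condition of entry. The 10 cardiomyocyte markers, none at 0, summed to 31500 to 47000 scaled RPKM with null virus and 33800 to 38400 with USP28 virus, and 0 passed in 9 libraries, with 1 higher and 2 lower without replicate 1. Endothelial markers summed to 333 to 430 against 277 to 317, which do not overlap, and macrophage markers to 77.4 to 106 against 74.3 to 82.1, with 0 of 12 passing in each in 9 libraries. Member by member there was no common fall in that fit. Of the endothelial markers 6 were positive and 6 negative (median log2 change 0.03), and of the macrophage markers 7 and 5 (median 0.21). The medians were -0.11 and -0.05 without replicate 1. Without replicate 1, 1 endothelial marker rose and 2 fell, and 0 macrophage markers passed. Of the markers of T and NK cells, mast cells and adipocytes 0 reached the filter.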

How the data were processed

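Left ventricular RNA of 9 mouse libraries (3 control, 3 null virus, 3 USP28 virus) was measured; per the labels' protocols, polyadenylated RNA was made into directional paired-end libraries. The authors deposited 1 table of RPKM values with gene lengths. HISAT2, DESeq2 and the build GRCh38 are named in the submitters' processing notes, with no version or role. GRCh38 is human, whereas the table's symbols are mouse and 25482 of 30128 gene spans match the GENCODE M21 annotation of GRCm38. Neither the counting tool nor its use of strand is given in the sources used here.

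RPKM was scaled by a trimmed mean of M values (30% and 5% trims), and log2 of scaled RPKM plus a pseudocount of 0.1 entered limma 3.58.1 (R 4.3.3; trended, robust) with all 9 libraries in 3 groups, and again over 8. On this scale the changes of low genes are understated. P-values were adjusted by Benjamini-Hochberg over 13615 genes, and "passed", "rose" and "fell" are used at an adjusted p under 0.05. The fit was tested on simulated data. Reads and depth were recovered from the steps of the RPKM values.

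Named genes are the 12 largest rises and falls in 9 libraries and 8 each without null-virus replicate 1 (mean of at least 1 scaled RPKM, no overlap, no gene models or pseudogenes), up to 4 members of each list each way that passed in either fit, and a fixed set of heart, matrix, fuel and clock genes. Members and lists were chosen with earlier results of these data known. Other examples were chosen after their values were seen. Some genes that the rule names are not reported here. Promoters are from RefSeq (GRCm38.p6), with entries for 8669 tested genes and 54 of the 96 that passed. Figures were drawn with matplotlib.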

Additional observations from a re-analysis of the deposited data

How the results depend on the processing

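The 96 genes that passed in 9 libraries became 33 with library totals alone (84.8% of them higher, against 61.5%), 10 with no filter on level, 316 at an adjusted p under 0.1, 192 by limma voom on the recovered reads, 1235 with array weights (0.106 for null-virus replicate 1, 0.774 to 1.817 for the others), 0 in the 6 db/db libraries alone (1769 at unadjusted p under 0.05) and 0 to 941 with 1 library left out. Other scalings, pseudocounts and filters gave 71 to 99. The 941 without null-virus replicate 1 became 201 to 1092 with 1 more library left out and 870 to 1378 under scalings, pseudocounts and limma voom, with 733 in the 5 db/db libraries alone. Without values that are not whole reads the counts were 76 and 935; leaving these values out and leaving out further libraries were chosen after seeing the data. With the replicate number as a block the counts were 0 (2267 at unadjusted p under 0.05) and 553. Same-numbered null-virus and USP28-virus libraries deviated from their group means together at r = 0.025, 0.001 and -0.044. The null-virus mean includes replicate 1, which stands apart, so these values cannot settle whether the numbers pair the libraries. The cause of these differences was not tested.

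Non-overlapping genes numbered 2850 to 3208 under the 3 scalings. Over 44 named genes and their alternatives, 575 of 835 values kept direction and side of the threshold, 236 kept direction and no longer passed, 15 kept it and newly passed, 9 that did not pass changed sign (in Atp2a2, Myh7, Nppa, Ppargc1a and Usp25), and 0 that passed did. Library totals shift the median of all genes by 0.08. Depth of 36.0 to 56.5 M reads limits short or scarce genes, and some that passed in 9 libraries rest on few reads. Mir7006 held 0 reads in each null-virus library and 2 or 3 with USP28 virus. Mir7048 held 0 in each null-virus library against 2, 3 and 4, and Gm27608 0 in each against 10, 6 and 8. Gm22121, which was lower, held 1, 2 and 2 reads with null virus and 0 in each USP28-virus library. All of these had reads in a single db/db group alone.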

Other observations

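Some genes that passed in 9 libraries fell outside the rule for named genes and were chosen here after their values were seen. Among the rises were Cd248, the endosialin of pericytes and fibroblasts, from a mean of 1.48 to 2.78 scaled RPKM (log2 0.87), Scube2, a secreted helper of Hedgehog release, from 0.709 to 1.59 (1.07), Ssc5d, a secreted scavenger receptor, from 0.563 to 1.13 (0.89), and Pcsk6, a convertase that activates corin, from 2.86 to 5.4 (0.89). Rnf207, a cardiac ubiquitin ligase tied to repolarisation, rose from 16.9 to 27.7 (0.70), and Carns1, which makes carnosine, from 3 to 5.73 (0.93; it overlaps the gene model Gm17552, which also passed). Apobec2, a muscle member of the cytidine deaminase family, fell from 60.8 to 34.0 (-0.83), and Fam162a, a hypoxia-responsive mitochondrial protein, from 145 to 89.3 (-0.70). Tmem100, an endothelial target of BMP signalling, fell from 11.9 to 6.53 (-0.84). For all 9 the groups did not overlap, and limma adjusted p-values with Benjamini-Hochberg adjustment were 0.0259 (Apobec2) to 0.0495 (Fam162a).

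The reads held by the values that are not whole, summed per library, were 24406, 16922 and 19471 with null virus and 293579, 165584 and 258334 with USP28 virus.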
